A study of Caenorhabditis elegans with 6 samples.

Results

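This account follows 8 *Caenorhabditis elegans* genes that make and package neuropeptides, chosen by name among the 46904 genes measured, with earlier results of these data known. They are the precursor-processing genes *egl-3*, *sbt-1* and *egl-21*, the amidation genes *pghm-1*, *pgal-1* and *pamn-1*, and the dense-core vesicle genes *ida-1* and *unc-31*. Ribosome-bound RNA was sequenced from 3 libraries of young adults kept for 6 h with antimycin A at 4.5 µM, a drug that blocks complex III of the mitochondrial respiratory chain, and from 3 libraries of young adults kept for 6 h with its vehicle ethanol (EtOH). All animals in both groups were of strain CLP1481, were grown at 20 °C and carried the array twnEx675, whose name marks it as extrachromosomal and which holds Pgcy-8::gfp together with Ptbh-1::rpl-22::3xHA. Through the second construct HA-tagged ribosomes form in cells with an active *tbh-1* promoter, and these were recovered with an anti-HA antibody. The promoter of *tbh-1*, whose product makes octopamine, is known to be active in the octopaminergic RIC neurons and in gonadal sheath cells, so the RNA need not be neuronal only.

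Neuropeptides are cut out of larger precursors while these travel through the secretory pathway and are packed into dense-core vesicles. A convertase cuts the precursor after pairs of basic residues, a carboxypeptidase trims those residues away, and many peptides then receive a C-terminal amide that their receptors need. The amide is made in consecutive reactions, a hydroxylation and a cleavage, and the finished vesicle waits for a calcium signal before it fuses with the plasma membrane.

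Levels are given in TPM, a length-corrected share of the transcripts in a library, so they can be compared between genes. TPM values keep no sequencing depth, which is unknown here, so no counting interval is given. Between 9951 and 11608 genes reached 1 TPM in a library, and ribosomal RNA took 8.07% to 23.5% of a library, most in antimycin A replicate 3. The promoter's own gene *tbh-1*, which sheath cells may also express, had 2156, 2683 and 1455 TPM in antimycin A and 1592, 1722 and 1684 TPM in EtOH. The other genes listed for the RIC neuron were far lower, and whether they mark RIC alone was not tested. Tyrosine decarboxylase *tdc-1* had 22.3, 14.9 and 11.6 TPM in antimycin A and 23.6, 8.598 and 8.33 TPM in EtOH, and the vesicular monoamine transporter *cat-1* had 2.62, 3.57 and 1.59 TPM in antimycin A and 1.76, 1.37 and 1.01 TPM in EtOH. The gonadal sheath markers summed to 4890 to 6545 TPM in antimycin A and 2794 to 4358 TPM in EtOH.

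After antimycin A, the TPM of 4 of these genes rose in the pull-down of tagged ribosomes and none fell. The 6 libraries hold no input RNA and no pull-down from untagged animals. Changes in RNA level, in ribosome loading and in background RNA therefore cannot be told apart. The genes that rose were *ida-1*, *pghm-1*, *sbt-1* and *pgal-1*, by 0.97 to 1.68 on a log2 scale. Of the 8 genes, 7 were tested, since *unc-31* stayed below 1 TPM everywhere, and each of the 7 was at 1 TPM or more in all 6 libraries, so none entered the test through the group where it was high. A gene was called at an adjusted p below 0.05 (limma on log2(TPM + 1), Benjamini-Hochberg over 11099 genes). Both groups' ranges were apart, with antimycin A the higher, for 5 of the 8 genes, against 23.1% of all tested genes apart in that direction and 11.6% in the other. By q below 0.05 in the authors' deposited table, the genes that are higher number 5, *egl-3* and the 4 called here, against 12.2% of the tested genes higher and 11.7% lower there. The 4 limma calls are 57.1% of the 7, against 14.2% of all tested genes called higher and 6.47% called lower. Since the genes were not chosen blind to these data, these shares describe them and do not test them as a set. The limma count of 0 genes lower was also 0 at an unadjusted p below 0.05, where 6 genes were higher. With the replicate number as a block, which pairs the libraries of each experiment, 6 of the 7 were higher and 0 lower, against 29.6% of all tested genes called higher and 42.6% called in either direction.

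The convertase gene *egl-3*, the worm homologue of a mammalian neuroendocrine convertase (WBGene00001172, WBcel235 chromosome V, 10169197 to 10173753, minus strand), had 20.3, 27.5 and 19.6 TPM in replicates 1 to 3 of antimycin A, against 15.5, 9.82 and 8.07 TPM in the same-numbered EtOH libraries. All antimycin A values lay above all EtOH values. The means were 22.5 TPM ± 4.35 in antimycin A and 11.1 TPM ± 3.86 in EtOH (SD, n = 3 each). The log2 fold change was 0.99 ± 0.31 SE and missed the threshold narrowly in limma (adjusted p = 0.0507), with a 95% interval of 0.29 to 1.69. It passed with the replicate block (limma adjusted p = 2.20e-04) and without EtOH replicate 1 (limma adjusted p = 0.0106). The gene also passed when rescaled to protein-coding genes, with a filter of 5 TPM, with sample quality weights and without both replicate 1 libraries, and under no other alternative. The same gene has q = 0.0381 in the authors' deposited table.

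*sbt-1* encodes the small secretory chaperone that the convertase needs to become active (WBGene00011392, chromosome V, 20827715 to 20828939, minus strand). It had 199, 223 and 197 TPM in antimycin A and 93.2, 91.4 and 90.9 TPM in EtOH. The groups of *sbt-1* lay far apart, and among the 8 genes it had the smallest coefficient of variation in either group, 6.85% in antimycin A and less in EtOH. The means were 206 TPM ± 14.1 in antimycin A and 91.8 TPM ± 1.18 in EtOH (SD, n = 3 each). The gene rose by 1.16 ± 0.18 SE on the log2 scale (limma adjusted p = 0.00143), in 3 of 3 pairs.

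The carboxypeptidase gene *egl-21*, whose product removes the basic residues left by the convertase (WBGene00001189, chromosome IV, 10478450 to 10481844, minus strand), had 57.1, 60.1 and 45.3 TPM in antimycin A and 45.8, 32.4 and 25.7 TPM in EtOH. The groups of *egl-21* overlapped at one point, where antimycin A replicate 3 lay just under EtOH replicate 1. Ribosomal RNA took 23.5% of that antimycin A library and 11.2% of that EtOH library, and its part in this overlap was not tested. The log2 fold change was 0.66 ± 0.27 SE, with a 95% interval of 0.07 to 1.25, and did not pass in limma (adjusted p = 0.119). It passed with the replicate block (limma adjusted p = 0.00184), without EtOH replicate 1 (limma adjusted p = 0.0284) and with sample quality weights, and under no other alternative. The authors' deposited table gives *egl-21* a q of 0.391.

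**Figure D1:**
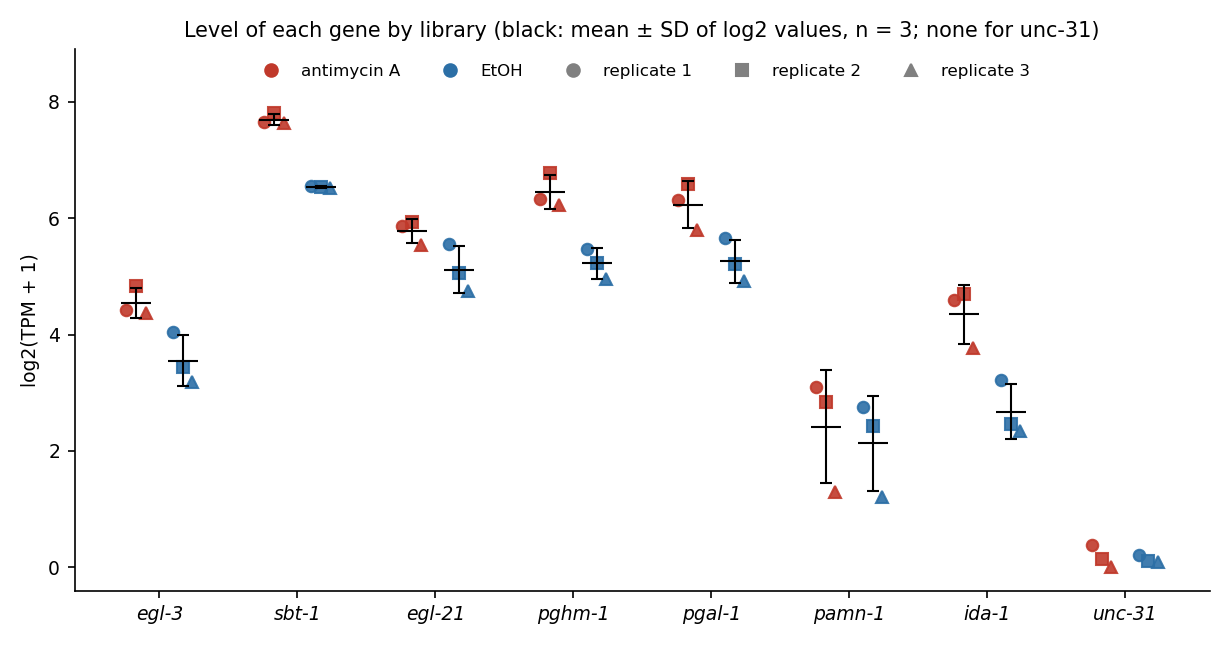
Level of each gene in each library, as log2(TPM + 1) on the vertical axis, with antimycin A libraries (red) left of EtOH libraries (blue); marker shapes give the replicate, and black bars the mean and SD of the log2 values (n = 3). The chaperone gene *sbt-1* is highest in both groups, with EtOH libraries between 90.9 and 93.2 TPM, and *unc-31* lies near the bottom with at most 0.307 TPM.

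Amidation is served by separate enzymes and by a combined one. The monooxygenase gene *pghm-1*, for the enzyme that hydroxylates the C-terminal glycine (WBGene00022144, chromosome I, 1808091 to 1811835, plus strand), had 79.3, 109 and 73.8 TPM in antimycin A and 43.4, 36.7 and 29.9 TPM in EtOH. The groups of *pghm-1* did not overlap. It rose by 1.22 ± 0.24 SE on the log2 scale (limma adjusted p = 0.00570). The means were 87.2 TPM ± 18.7 in antimycin A and 36.7 TPM ± 6.72 in EtOH (SD, n = 3 each).

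*pgal-1*, for the lyase that then releases the amidated peptide (WBGene00017671, chromosome I, 4906786 to 4911829, plus strand), had 78.3, 95.4 and 54.7 TPM in antimycin A and 49.4, 36.0 and 29.3 TPM in EtOH. The groups of *pgal-1* did not overlap, with antimycin A replicate 3 the closest to the EtOH libraries. The gene rose by 0.97 ± 0.28 SE on the log2 scale (limma adjusted p = 0.0348). Of the 4 calls it was lost under the most settings. In limma it was lost without antimycin A replicate 1 (adjusted p = 0.0845), antimycin A replicate 2 (0.174), EtOH replicate 2 (0.122) or EtOH replicate 3 (0.132). The call also missed the threshold when libraries were rescaled, by median-of-ratios (limma adjusted p = 0.0558) or by quantiles (limma adjusted p = 0.0520), and without the filter on low values (limma adjusted p = 0.0978). The last 25 bases of the *pgal-1* locus overlap *F21F3.6* on the other strand, which reached 322 TPM, and with no strand setting given in the sources used here, reads of that stretch cannot be told apart.

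*pamn-1*, for an enzyme that joins both amidation activities in 1 protein (WBGene00020556, chromosome I, 5702156 to 5706838, plus strand), had 7.56, 6.19 and 1.46 TPM in antimycin A and 5.77, 4.36 and 1.32 TPM in EtOH. Replicate 3 was low in both groups of *pamn-1*, and the spread within a group was wider than the distance between groups. The log2 fold change was 0.28 ± 0.55 SE (limma adjusted p = 0.824; 0.372 with the replicate block), with a 95% interval of -0.95 to 1.52 that reaches past the changes of *pghm-1* and *pgal-1*. Its sign turned without antimycin A replicate 1 (-0.059), without EtOH replicate 3 (-0.18) and after quantile normalization (-0.027). Within libraries, *pghm-1* stood at 10.5, 17.6 and 50.4 times *pamn-1* in antimycin A and at 7.52, 8.42 and 22.7 times in EtOH, so the separate monooxygenase was the more abundant in every library. All 3 amidation genes lie on chromosome I, in separate places.

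*ida-1*, for a transmembrane protein of dense-core vesicles related to receptor protein tyrosine phosphatases (WBGene00002048, chromosome III, 5755496 to 5765815, plus strand), had the highest log2 fold change of the 7 tested genes. It had 23.2, 24.8 and 12.6 TPM in antimycin A and 8.31, 4.50 and 4.08 TPM in EtOH. The groups did not overlap, and antimycin A replicate 3 lay closest to the EtOH libraries. The means were 20.2 TPM ± 6.61 in antimycin A and 5.63 TPM ± 2.33 in EtOH (SD, n = 3 each), a ratio of 3.59. It rose by 1.68 ± 0.37 SE on the log2 scale (limma adjusted p = 0.0100). The limma call was lost without antimycin A replicate 2 (1.51, adjusted p = 0.0732) or EtOH replicate 2 (1.57, adjusted p = 0.0522).

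*unc-31*, for the CAPS protein that primes dense-core vesicles for release (WBGene00006767, chromosome IV, 12773862 to 12787513, plus strand), had 0.307 and 0.108 TPM in replicates 1 and 2 of antimycin A and was listed at 0 in replicate 3. In EtOH it had 0.156, 0.0764 and 0.0723 TPM. The EtOH values of *unc-31* lay within the range of its antimycin A values, and all lay below the 1 TPM filter, so it was not tested. Without that filter its log2 fold change on the log2(TPM + 1) scale was 0.04 ± 0.10 SE (limma adjusted p = 0.889), a scale that understates the change of so low a gene. Whether the gene model used to assign reads bears on so low a value was not tested, so its place in an order of levels is that of the deposited TPM only.

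The order of levels was nearly the same in both groups. In antimycin A it was *sbt-1*, *pghm-1*, *pgal-1*, *egl-21*, *egl-3*, *ida-1*, *pamn-1* and *unc-31*. There the ranges of *pghm-1* and *pgal-1*, of *pgal-1* and *egl-21* and of *egl-3* and *ida-1* overlapped, and the other neighbours did not. In EtOH *pgal-1* and *pghm-1* changed places, and the ranges of *pgal-1* and *pghm-1*, of *pghm-1* and *egl-21*, of *egl-3* and *ida-1* and of *ida-1* and *pamn-1* overlapped. Among all tested genes, *sbt-1* stood at percentile 93.4 of the mean TPM, *pghm-1* at 85.9, *egl-3* at 65.3, *ida-1* at 59.2 and *pamn-1* at 30.8.

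The genes also had a course between replicates in common, which was not theirs alone. In TPM, all 8 were highest in replicate 1 among the EtOH libraries and lowest in replicate 3 among the antimycin A libraries. Of the marker lists described below, the sums for neurons in general, muscle, hypodermis, coelomocytes and germline had the same extremes. The sums for gonadal sheath, intestine and the octopaminergic neuron were also lowest in antimycin A replicate 3, but lowest in EtOH replicate 1. Ribosomal RNA took 23.5% of antimycin A replicate 3, more than of any other library. TPM is scaled to a fixed library sum, so a larger share of ribosomal RNA leaves less for the other genes. The part of ribosomal RNA in the low values of that library was not tested. Within same-numbered pairs, the TPM ratio of antimycin A over EtOH was highest in pair 2 for all 7 tested genes and lowest in pair 1 for 6 of them, *pamn-1* being the exception. For *egl-3* the ratio was 1.32, 2.80 and 2.43 in pairs 1 to 3, and for *ida-1* it was 2.80, 5.51 and 3.10. For *sbt-1* it was 2.14, 2.44 and 2.17, so this gene varied least between pairs. All 7 tested genes were higher in 3 of 3 pairs, and *unc-31* was higher in 2 of 3. The share of all tested genes with such an order or direction of pairs was not counted, so these counts have no background beside them. Whether the order of pairs depends on the share of ribosomal RNA in each library was not tested. In limma, 2 of the genes, *sbt-1* and *pghm-1*, kept their call whichever single library was left out. They were the only calls left without antimycin A replicate 2 or without EtOH replicate 2, and with both replicate 2 libraries left out 0 of the 7 passed (*sbt-1* adjusted p = 0.0878, *pghm-1* 0.178). In that smaller limma fit 391 genes were higher in all, against 1579 with every library. Without EtOH replicate 1, which was the highest EtOH library for each gene, 6 of the 7 rose.

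**Figure D2:**
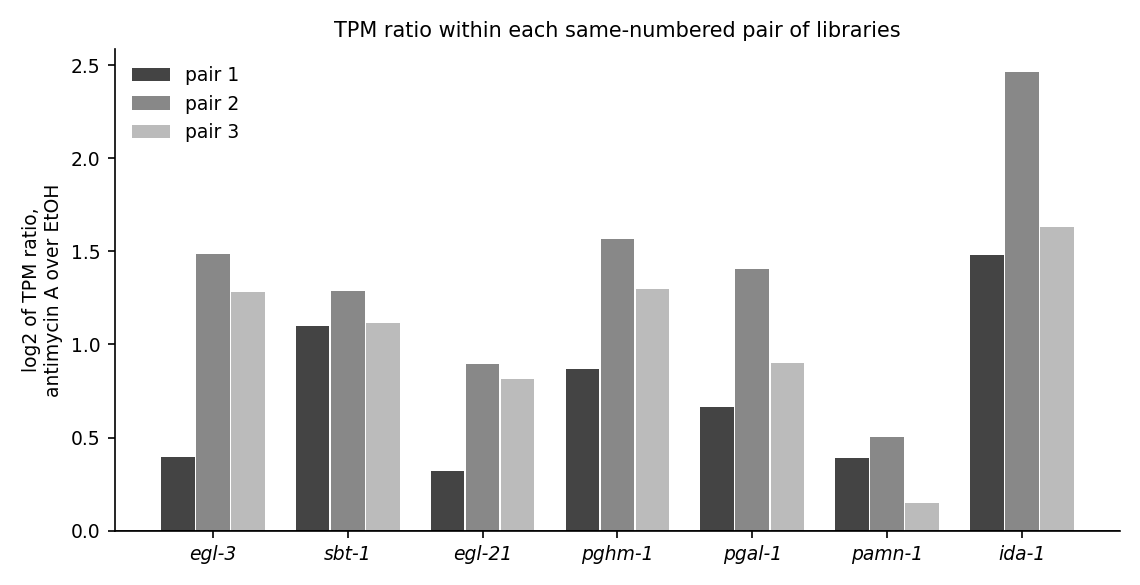
Log2 of the TPM ratio, antimycin A over EtOH (vertical axis), within each same-numbered pair of libraries for the 7 tested genes; each bar is 1 pair. All bars lie above 0, and pair 2 has the highest ratio for every gene, up to a TPM ratio of 5.51 for *ida-1*.

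The 7 tested genes had a median log2 fold change of 0.99, and the median of all 11099 tested genes was 0.21. Relative to that median, *ida-1* lay 1.47 higher, *pghm-1* 1.01, *sbt-1* 0.95, *egl-3* 0.78, *pgal-1* 0.76, *egl-21* 0.45 and *pamn-1* 0.07. By its log2 fold change *ida-1* stood at percentile 94.4 of all tested genes, *pghm-1* at 89.5, *sbt-1* at 88.5, *egl-3* at 85.4 and *egl-21* at 76.0. Median-of-ratios scaling brought the median of all genes to -0.026 and quantile normalization brought it to -0.091. The genes' own median was then 0.72 and 0.63, and *sbt-1*, *pghm-1* and *ida-1* passed under both. Those scalings also changed the split of all calls, with 54.1% and 50.4% higher, against 68.7% as deposited.

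**Figure D3:**
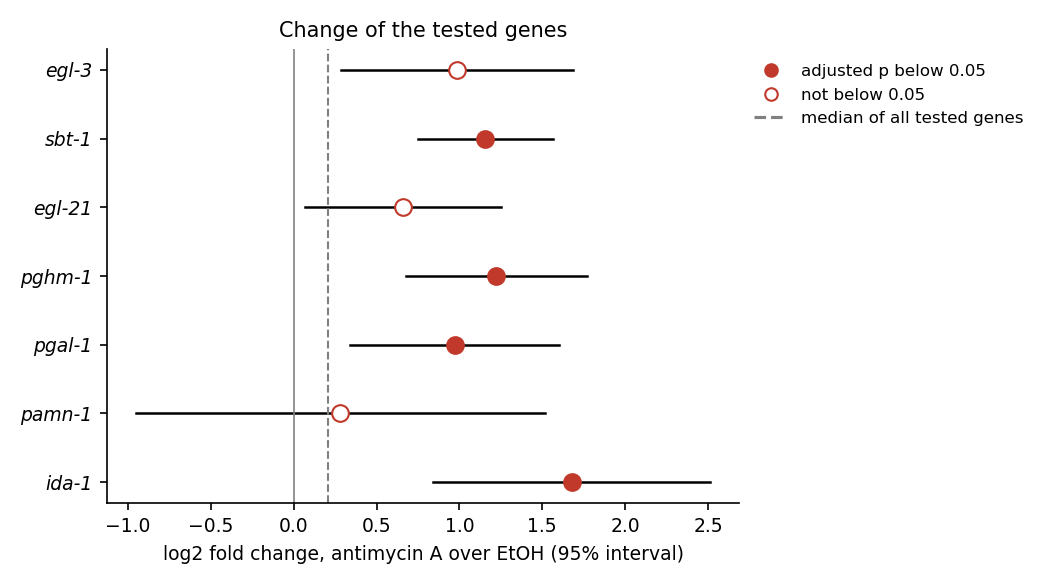
Log2 fold change of the 7 tested genes, antimycin A over EtOH (horizontal axis), with 95% intervals from limma; filled circles passed an adjusted p of 0.05, and the dashed line is the median of all tested genes, 0.21. The 4 filled circles are *sbt-1*, *pghm-1*, *pgal-1* and *ida-1*, and the interval of *pamn-1* spans -0.95 to 1.52.

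Within the processing steps, the proportions of the genes shifted in part. The ratio of *egl-21* to *egl-3* was 2.81, 2.19 and 2.31 in antimycin A and 2.96, 3.30 and 3.19 in EtOH, lower in each antimycin A library than in any EtOH library. The ratio of *ida-1* to *egl-3* was 1.14, 0.901 and 0.643 in antimycin A and 0.537, 0.458 and 0.505 in EtOH, again without overlap but in the other direction. The ratios of *sbt-1* to *egl-3* overlapped, at 8.09 to 10.03 in antimycin A and 6.03 to 11.3 in EtOH. Those of *pghm-1* to *pgal-1* overlapped too, at 1.01, 1.14 and 1.35 in antimycin A and 0.879, 1.02 and 1.02 in EtOH. These ratios do not depend on the scaling between libraries, and they are descriptions without a test.

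Of 9 markers of neurons in general, 7 were tested and 0 were called in limma, with 1 higher at an unadjusted p below 0.05, 1 under each of the replicate block, quantile normalization, median-of-ratios scaling and the omission of EtOH replicate 1, and 2 with sample quality weights. Of the 7, *unc-33* was the marker higher with the block, at 9.46, 7.18 and 5.72 TPM in antimycin A and 6.12, 1.44 and 0.882 TPM in EtOH, a log2 fold change of 1.38 ± 0.49 SE (limma adjusted p = 0.0790). The marker median was -0.013 on the log2 scale, against 0.21 for all genes. The genes of vesicle release, listed separately below, were not among these markers, and their median was 0.38. One of them, *snb-1*, had a mean of 344 TPM in antimycin A and 166 TPM in EtOH, more than the marker sum of any library. The marker sum and ratios to it therefore depend on which markers were chosen. *unc-119*, the marker with the highest mean, had 9.68, 7.91 and 6.22 TPM in antimycin A and 10.1, 9.20 and 5.22 TPM in EtOH. The markers summed to 49.1, 34.5 and 24.1 TPM in antimycin A and 49.7, 25.5 and 18.4 TPM in EtOH, and *rgef-1* and *unc-10* stayed below 1 TPM. The 8 genes summed to 465, 545 and 405 TPM in antimycin A and 261, 215 and 189 TPM in EtOH, without overlap. Divided by the marker sum of the same library, they stood at 9.48, 15.8 and 16.8 in antimycin A and 5.26, 8.44 and 10.3 in EtOH. This ratio was higher in antimycin A in 3 of 3 pairs, but the groups overlapped. For *ida-1* the ratio was 0.473, 0.718 and 0.523 in antimycin A and 0.167, 0.176 and 0.221 in EtOH, without overlap. That of *pgal-1* was 1.595, 2.767 and 2.267 in antimycin A and 0.994, 1.411 and 1.590 in EtOH, only just without overlap. The ratios of the other genes overlapped. In such a mixed pull-down, a change in the number of contributing cells and a change in RNA per cell cannot be told apart.

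**Figure D4:**
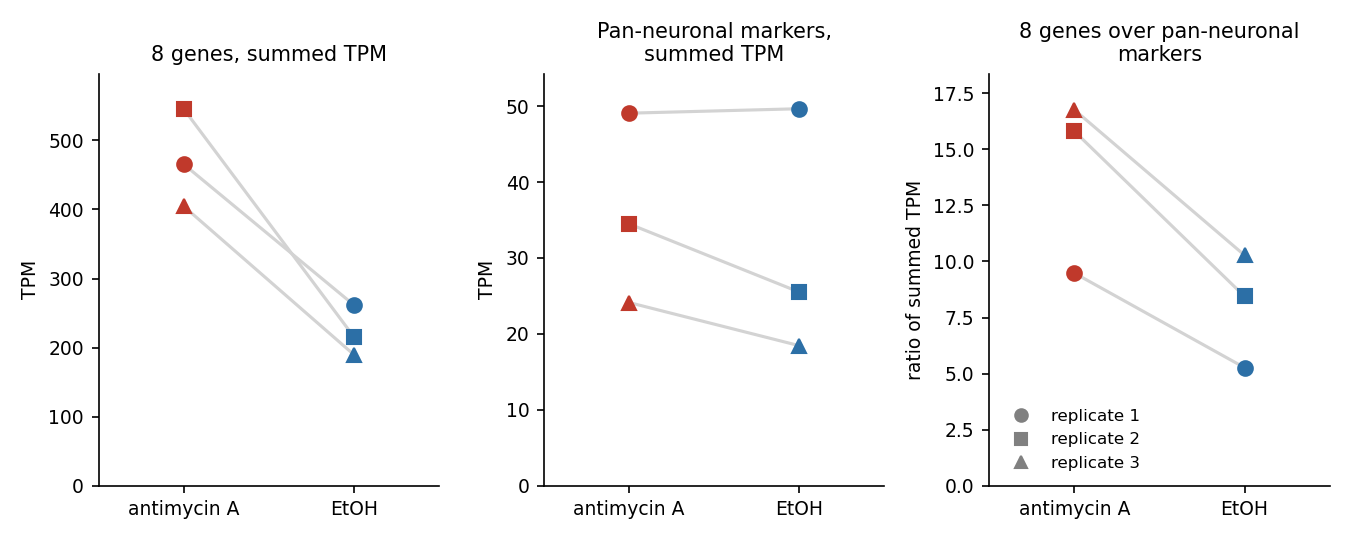
Summed TPM of the 8 genes (left), summed TPM of the pan-neuronal markers (middle) and the ratio of these sums (right), each point 1 library and each grey line 1 same-numbered pair, antimycin A on the left and EtOH on the right of each panel. The sums of the 8 genes separate the groups, 405 to 545 TPM in antimycin A against 189 to 261 TPM in EtOH, while the marker sums overlap.

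Markers of other tissues moved with the comparison as well. Their counts stand beside 14.2% of all tested genes called higher and 6.47% called lower in limma. Of 9 intestine markers, 6 fell and 2 rose in limma, and their sum was 2329 to 4771 TPM in antimycin A and 8936 to 10397 TPM in EtOH, with none of them at 0. Without antimycin A replicate 1 or 2 or EtOH replicate 3, 1 intestine marker rose in place of 2. Of 5 tested hypodermis markers 1 rose and 1 fell, and the list's sum was 410 to 954 TPM in antimycin A and 1048 to 1335 TPM in EtOH. The marker that rose had at most 0.507 TPM in EtOH, so it entered the test only through antimycin A. With any antimycin A library left out, that marker no longer reached 1 TPM in 3 libraries and was therefore not tested. Of the hypodermis markers, 0 fell without antimycin A replicate 2 or 3 or EtOH replicate 2 or 3, but 2 fell without antimycin A replicate 1. In limma 0 of 4 gonadal sheath, 0 of 6 muscle, 0 of 5 germline and 0 of 3 octopaminergic neuron markers were called, with 2 sheath markers and none of the others past an unadjusted p of 0.05, and with 2 sheath markers higher and 1 germline marker lower under the block. Without antimycin A replicate 3, or rescaled to protein-coding genes, 1 sheath marker was higher, and after quantile normalization 2 were. With sample quality weights 3 of the 4 sheath, 3 of the 3 octopaminergic neuron, 1 of the 6 muscle and 1 of the 5 germline markers were higher. Muscle markers summed to 476 to 779 TPM in antimycin A and 518 to 814 TPM in EtOH, and germline markers to 82.3 to 176 TPM in antimycin A and 76.8 to 261 TPM in EtOH. Coelomocyte markers, all below the filter, summed to 0.548 to 1.27 TPM in antimycin A and 0.383 to 0.855 TPM in EtOH. The part of these markers in the changes of the processing genes was not tested.

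Other genes of peptide processing rose in part. Of 5 further convertases and carboxypeptidases, 2 rose in limma, 4 with the replicate block, and their median was 0.81. Over all tested genes, 14.2% rose in limma and 29.6% with the block. The furin-like convertase gene *kpc-1* had 25.7, 22.8 and 13.2 TPM in antimycin A and 6.44, 6.18 and 3.57 TPM in EtOH (1.73 ± 0.36 SE, limma adjusted p = 0.00666). The carboxypeptidase D family gene *cpd-2* had 59.3, 73.0 and 47.0 TPM in antimycin A and 31.3, 31.9 and 36.4 TPM in EtOH (0.81 ± 0.24 SE, limma adjusted p = 0.0371), and *cpd-1* was not called (0.58 ± 0.31 SE). Without antimycin A replicate 2 none of these was called, and without antimycin A replicate 1, EtOH replicate 2 or EtOH replicate 3 only 1 was. The count was also 1 without the filter on low values or after either rescaling, and 5 with sample quality weights.

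The lists of vesicle formation, transport and fusion are to be read against the 14.2% of all tested genes called higher, or 29.6% with the block. Of 11 tested genes of dense-core vesicle biogenesis, 2 rose in limma, the small GTPase genes *rab-10* (0.82 ± 0.22 SE) and *unc-108* (0.79 ± 0.22 SE), and 3 with the block, *vps-51* (0.88 ± 0.43 SE) among them. The count was 0 without antimycin A replicate 1 or 2 or EtOH replicate 2 or 3, and 0 after median-of-ratios scaling or without the filter on low values, 1 after quantile normalization and 4 with sample quality weights. No transport gene of 5 was called in limma, where 0 had an unadjusted p below 0.05, against 3 with the block and 2 without EtOH replicate 1. Those 3, *arl-8*, *unc-116* and *unc-16*, had log2 fold changes of 0.68, 0.73 and 0.63. Among 9 release genes the limma count was 0, with 2 higher at an unadjusted p below 0.05 and 2 with the block, *snb-1*, for synaptobrevin (1.09 ± 0.41 SE), and *aex-6* (0.69 ± 0.30 SE), while *unc-64*, for syntaxin, had 0.33 ± 0.20 SE. Leaving out antimycin A replicate 3 or EtOH replicate 1 gave 1 call among the release genes. With sample quality weights 3 transport and 4 release genes were higher.

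The remaining precursor lists were taken by gene name and were not limited to peptides that the 8 genes' products are known to process. Over all tested genes, 14.2% were called higher and 6.47% lower in limma, and 29.6% higher with the block. Of 30 tested FMRFamide-like precursors 10 rose and 0 fell in limma, with 15 higher and 0 lower at an unadjusted p below 0.05 and 20 higher and 0 lower with the block. Their median was 0.90, and *flp-16*, *flp-5* and *flp-9* rose by 3.02, 2.82 and 2.15 on the log2 scale. The count fell to 5 without antimycin A replicate 2 or EtOH replicate 2, to 6 without antimycin A replicate 1 or EtOH replicate 3 and to 6 without the filter on low values, and it was 23 with sample quality weights. Of 61 tested NLP precursors 26 rose and 4 fell in limma, with a median of 0.80. At an unadjusted p below 0.05, 32 were higher and 4 lower, and with the block 38 were higher and 5 lower. The NLP count higher was 18 to 29 with 1 library left out. Among them *nlp-48*, *nlp-46* and *nlp-31* rose by 3.92, 3.20 and 2.99. The NLP list includes the *nlp-29* cluster, to which *nlp-31* belongs and whose products are known as antimicrobial peptides of the epidermis. The 4 that fell were 2 without antimycin A replicate 1 or 2 or EtOH replicate 2 or 3 and 2 after quantile normalization, and 41 were higher with sample quality weights. Of 27 tested insulin-like precursors 8 rose and 2 fell in limma, 14 and 4 with the block, with a median of 0.70, and *ins-11*, *ins-17* and *ins-7* rose by 4.57, 2.04 and 1.58. *ins-11* had at most 0.233 TPM in EtOH, so it entered the test only through antimycin A, the group where it was high. Some other called NLP and insulin-like genes, higher or lower, also entered only through the group where they were high. The counts of these lists are in part set by that filter. Fewer insulin-like genes rose without antimycin A replicate 1 (4 of 23 tested), 2 (2 of 24) or 3 (4 of 24) or without EtOH replicate 2 (3 of 24). The count that fell was 1 without antimycin A replicate 1 or 3 and 0 without EtOH replicate 2 or 3. In these lists, a gene that reached 1 TPM only in the 3 libraries of 1 group, such as *ins-11*, was not tested once any of them was left out. Part of these lower counts is therefore set by the filter. The insulin-like count was 5 higher without the filter on low values or after either rescaling, and 14 higher and 4 lower with sample quality weights. The lower count was 1 with a pseudocount of 0.1 and 0 with a filter of 5 TPM. Among 4 tested precursors of other families the limma count was 0, with 2 higher at an unadjusted p below 0.05 and 2 with the block, *ntc-1* (0.53) and *snet-1* (0.83), and *pdf-1* had -0.18.

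Of 7 tested neprilysin-like genes, a family that includes enzymes which degrade released peptides, 0 rose and 2 fell in limma, with 2 higher at an unadjusted p below 0.05 and 3 higher with the block. Over all tested genes, 14.2% rose and 6.47% fell in limma, and 29.6% rose with the block. The genes of this family that fell were *nep-17* (-1.74 ± 0.37 SE, limma adjusted p = 0.00813) and *nep-22* (-1.46 ± 0.36 SE, limma adjusted p = 0.0170). The other named gene, *nep-11*, had 0.64 ± 0.27 SE and was not called. Only 1 fell without EtOH replicate 2 or EtOH replicate 3, and 0 fell without the filter on low values or without both replicate 2 libraries. With sample quality weights 4 were higher.

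**Figure D5:**
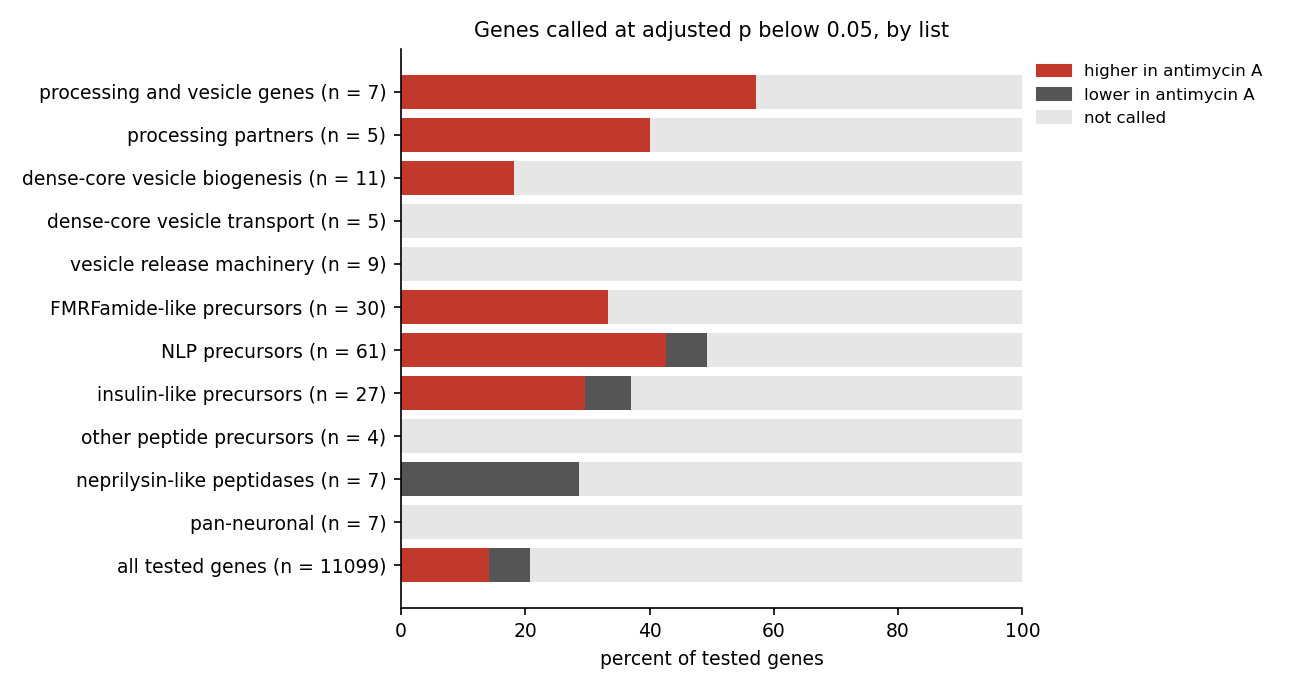
Share of tested genes called higher (red) or lower (dark grey) in antimycin A at a limma adjusted p below 0.05, by list, with the number of tested genes beside each name (horizontal axis in percent of tested genes). The top bar is the set described here, with 57.1% called higher, and the bottom bar is all tested genes, with 14.2% called higher and 6.47% lower.

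Across the 6 libraries, the genes whose course lay closest to the average course of the 7 tested genes were *iglr-2*, *F16B12.4*, *phf-34*, *C09B7.2* and *lec-2*. Likeness was the root mean square difference between mean-centred log2(TPM + 1) values, and it was 0.0705 to 0.0826 for these genes. Of the 7 genes themselves, *pgal-1* lay closest to their average (0.0413), then *egl-3* (0.147), *pghm-1* (0.183), *egl-21* (0.189), *sbt-1* (0.284) and *ida-1* (0.369). *pamn-1* was farthest, at 0.585, and ranked 6028 among all tested genes. Each of the 7 is itself part of that average, which draws its own distance down. Their distances and ranks are therefore not on a par with those of other genes. As an example of such a course, *lec-2*, a galectin gene, had 298, 277 and 188 TPM in antimycin A and 160, 121 and 97.2 TPM in EtOH.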

How the data were processed

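The authors deposited TPM, a length-corrected share of transcripts scaled to a fixed library sum, for 46904 genes in a table of all libraries and in 3 tables of same-numbered pairs, whose 6 TPM columns are identical to it. Tools named in the submitters' processing notes are DESeq2 1.28.1, StringTie 2.1.4, HISAT2, Trimmomatic 0.36 and bcl2fastq 2.20, with build WBcel235; the strand setting is not given in the sources used here. Per the file headers, the first table also holds the authors' ratio of group means, its log2, a p-value and a q-value. Genes without signal are listed at 1e-04 TPM and were set to 0.

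limma 3.58.1 (R 4.3.3) was fitted with a mean-variance trend to log2(TPM + 1), group as the only term, for genes that reached 1 TPM in 3 or more of the libraries, so fold changes of low genes are understated. Tables and figures used Python 3.11.15, pandas 2.3.3, numpy 2.4.6 and matplotlib 3.10.9, and the fit was tested on simulated data. Deviations from group means correlated at 0.68, 0.31 and 0.59 for replicates 1 to 3, and the design text describes independent experiments each with both treatments, and replicate numbers were therefore read as pairing libraries. The genes and the 17 lists were chosen with earlier results of these data known. Named genes are the 8, the 3 smallest p values of each list of a process, the most abundant marker of each tissue and *tbh-1*, *tdc-1* and *cat-1*, and the 5 nearest in course; *unc-10*, *rgef-1*, *unc-33*, the *nlp-29* cluster and *F21F3.6* were named after their values were seen. *rab-2* was read as *unc-108*; *tbc-4*, *pdf-2* and *tag-168* were not matched. Of the tissue markers, *vit-2*, *inx-8*, *unc-27*, *col-140*, *cup-4* and *puf-5* had the highest means. Alternatives were other pseudocounts, filters and scalings, sample weights, the replicate block and left-out libraries.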

Additional observations from a re-analysis of the deposited data

How the results depend on the processing

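With the replicate number as a block, 6 of the 7 tested genes were higher in place of 4, and over all tested genes 3282 were higher and 1442 lower, against 1579 and 718. That fit changed the calls of *egl-3* and *egl-21* and of no other gene among the 7. With sample quality weights 4094 genes were higher and 1219 lower; median-of-ratios scaling gave 1185 lower and quantile normalization 1398 lower. Leaving out 1 library or both libraries of a number gave 0 to 6 of the 7 genes higher, and 391 to 2059 higher and 162 to 705 lower over all genes. The count of the 7 was 3 to 6 under the other settings. The log2 fold change of *pamn-1* turned to -0.027 after quantile normalization and ran from -0.18 to 0.84 over the left-out libraries and pairs, and the signs of the other 6 genes held under all 18 alternatives. The summed level over pan-neuronal markers was 1.75 times as high in antimycin A as in EtOH, and 1.498 to 2.05 times with libraries left out. That ratio depends on the markers chosen, and other marker lists were not tried. The cause of these shifts was not tested. Depth is unknown, so for low genes such as *pamn-1* and *unc-31* counting error cannot be set apart from other spread. With 3 libraries a group, a two-sided exact permutation test of a single gene cannot reach an unadjusted p of 0.05.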
